A study of Mus musculus with 18 samples.

Results

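Ghrh, Sst, Trh, Crh, Gnrh1, Nts and Ntsr2 encode 6 hypothalamic peptides and 1 neurotensin receptor, and their RNA was followed through all 18 libraries of a mouse arcuate nucleus series. The genes were taken by symbol from each deposited expression table, and all 7 were found among 23235 symbols. Values are FPKM, fragments scaled to transcript length and to the number of mapped fragments, so levels of different genes can be set beside each other per length. A gene was tested when its mean over the libraries was at least 0.5 FPKM. This left 14774 genes, 6 of the 7 among them, and Crh was too low.

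All animals were C57/BL females that had been ovariectomized, so every group, the controls included, lacked ovarian hormones. There were 6 groups of 3 libraries: wild type (WT), ERalpha KIKO and ERalpha KO (ERKO), each given oil or E2. In the E2 groups estradiol benzoate was injected at 250 ng (day 5 after surgery) and at 1500 ng (day 6), and the oil groups received oil on both days. Arcuate tissue was taken 24 h after the last injection, at the end of a fast of 1 h. ERα, the product of Esr1, acts by binding estrogen response elements in DNA or without such binding, and the series asked which arcuate transcripts depend on each mode. KIKO animals are known in this field as carriers of an ERα mutant that cannot bind estrogen response elements, with no normal copy. The labels give neither the construction of the alleles nor the age of the animals. They also do not say whether 1 library is 1 animal, so p-values measure the spread between libraries, which may be technical.

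The hypothalamus governs the anterior pituitary through small peptides released into the portal blood. GHRH drives growth hormone release and somatostatin restrains it, while TRH, CRH and GnRH drive the thyroid, adrenal and gonadal axes. Neurotensin is a short peptide with roles in feeding, body temperature and reproductive control, and it acts through the receptors NTSR1 and NTSR2 and through sortilin. GHRH neurons lie in the arcuate nucleus itself, and the arcuate nucleus also holds neurotensin and somatostatin cells. GnRH cell bodies lie mainly in the preoptic area, and most CRH and TRH neurons that project to the pituitary lie in the paraventricular nucleus.

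The deposited confidence bounds implied between 12771709 and 26017123 fragments per library. The third ERKO E2 library stood apart from the other 17. Its total was 628541 FPKM against 418191 to 492135, and its log2 values correlated with other libraries at Pearson's r of 0.919 to 0.954, against 0.963 to 0.995 among the rest. Avp, the vasopressin gene, reached 13107 FPKM there against at most 4581 elsewhere. The 6 paraventricular and magnocellular markers, none at 0 in any library, summed to 20520 FPKM there and to between 1779 and 7323 elsewhere. Avp and Oxt (7392 FPKM there) made up nearly all of that sum. Among the other markers on the list, Sim1 was highest there at 1.82 FPKM, but Otp was lowest at 11.7 FPKM, against up to 67.7 FPKM elsewhere. Differences in which this library takes part are followed below by their values without it where these change much. Because all comparisons share 1 estimate of spread, fits without this library are also given for comparisons it does not enter. Esr1 itself was read as a check of the ERKO label. It measured 5.38, 6.92 and 11.9 FPKM in WT oil and 1.62, 2.39 and 2.27 FPKM in ERKO oil, a difference in log2(FPKM + 1) of −1.49 ± 0.32 (SE; limma, adjusted p = 0.0367). That call was lost with a pseudocount of 0.1 (adjusted p = 0.0905) or 0.5 (0.0524) and without any 1 of the 6 libraries (0.0573 to 0.160). Under E2, Esr1 measured 3.45, 5.24 and 5.88 FPKM in WT and 1.91, 2.34 and 0.212 FPKM in ERKO. This difference of −1.34 ± 0.32 did not pass (limma, adjusted p = 0.0569). KIKO libraries measured 2.91, 4.08 and 3.94 FPKM under oil and 3.05, 3.89 and 2.85 FPKM under E2. Esr1 was not at 0 in any ERKO library, and the deleted part of the gene is not given in the labels. The 12 arcuate neuron markers were present in every library, and the 10 pituitary and pars tuberalis markers summed to between 4.07 and 367 FPKM, differing widely within groups. Among the latter Cga averaged 121 FPKM, Tshb 13.4 FPKM and Lhb 10.7 FPKM, while Gh and Prl were at 0 in 16 and 17 libraries.

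Because the study concerns binding of ERα to DNA, the sequences just upstream of the genes are given with their motif matches. RefSeq start sites on GRCm38.p6 were matched by symbol for 5 of the 7 genes, giving 6 windows of 250 bases. Crh and Gnrh1 are named only. Each window is written 5′ to 3′ on the strand of the gene and ends at the base before the start. Capitals mark matches to the motifs described after the sequences.
Nts, chr10:102490419-102490668, minus strand: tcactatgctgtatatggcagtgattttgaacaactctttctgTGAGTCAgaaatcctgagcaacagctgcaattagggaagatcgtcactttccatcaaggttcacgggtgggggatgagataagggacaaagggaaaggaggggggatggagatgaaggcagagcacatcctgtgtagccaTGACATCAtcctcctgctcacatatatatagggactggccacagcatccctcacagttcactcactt
Ntsr2, chr12:16653220-16653469, plus strand: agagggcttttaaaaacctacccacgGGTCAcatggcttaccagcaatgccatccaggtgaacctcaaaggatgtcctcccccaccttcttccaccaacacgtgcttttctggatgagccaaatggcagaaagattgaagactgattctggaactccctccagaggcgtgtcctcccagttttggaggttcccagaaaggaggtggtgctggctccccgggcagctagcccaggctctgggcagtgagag
Ghrh start 1, chr2:157346656-157346905, minus strand: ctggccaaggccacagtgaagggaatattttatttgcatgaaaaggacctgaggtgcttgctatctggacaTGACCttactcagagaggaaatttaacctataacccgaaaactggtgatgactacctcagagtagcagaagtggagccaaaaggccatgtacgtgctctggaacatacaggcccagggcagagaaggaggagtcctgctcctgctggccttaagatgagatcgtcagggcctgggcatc
Ghrh start 2, chr2:157337427-157337676, minus strand: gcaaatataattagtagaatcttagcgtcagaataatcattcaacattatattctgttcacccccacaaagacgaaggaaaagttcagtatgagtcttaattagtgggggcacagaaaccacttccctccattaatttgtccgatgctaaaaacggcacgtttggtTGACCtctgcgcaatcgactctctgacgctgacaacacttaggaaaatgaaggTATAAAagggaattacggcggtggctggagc
Sst, chr16:23890845-23891094, minus strand: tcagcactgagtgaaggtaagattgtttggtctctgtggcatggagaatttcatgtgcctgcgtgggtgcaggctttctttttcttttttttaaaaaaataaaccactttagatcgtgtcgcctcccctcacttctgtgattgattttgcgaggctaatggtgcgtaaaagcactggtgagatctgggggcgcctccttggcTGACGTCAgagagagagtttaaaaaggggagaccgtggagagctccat
Trh, chr6:92244651-92244900, minus strand: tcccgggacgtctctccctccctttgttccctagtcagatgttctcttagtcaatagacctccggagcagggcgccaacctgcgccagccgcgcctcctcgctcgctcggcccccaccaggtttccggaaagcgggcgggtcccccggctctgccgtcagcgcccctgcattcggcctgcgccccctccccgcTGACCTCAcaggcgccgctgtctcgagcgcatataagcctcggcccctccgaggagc

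The full estrogen response element, an inverted repeat of GGTCA with any 3 bases between its arms, was in none of the 6 windows. It is rare, occurring in 0.0639% of 32851 RefSeq windows of the same length, so its absence from 6 windows says little. All motifs were searched on both strands. The estrogen response element half-site GGTCA occurred in both Ghrh windows, in Trh and in Ntsr2, and in 35.2% of all windows. Nts and Sst had no half-site. The cyclic AMP response element family TGACNTCA, found in 7.49% of windows, was present in Sst as TGACGTCA 48 to 41 bases before the start. Nts carried it as TGACATCA 67 to 60 bases before the start. In Trh it read TGACCTCA 57 to 50 bases before the start and overlapped the half-site on the other strand. The AP-1 motif TGANTCA, in 6.75% of windows, was in Nts alone among the 6, 207 to 201 bases before the start. The TATA motif TATAAA, in 12.4% of windows, was in the second Ghrh window alone. These are matches of letters, and binding was not measured. Sequence beyond the 250 bases was not searched, so the windows cannot show by which mode a gene responds.

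**Figure D1:**
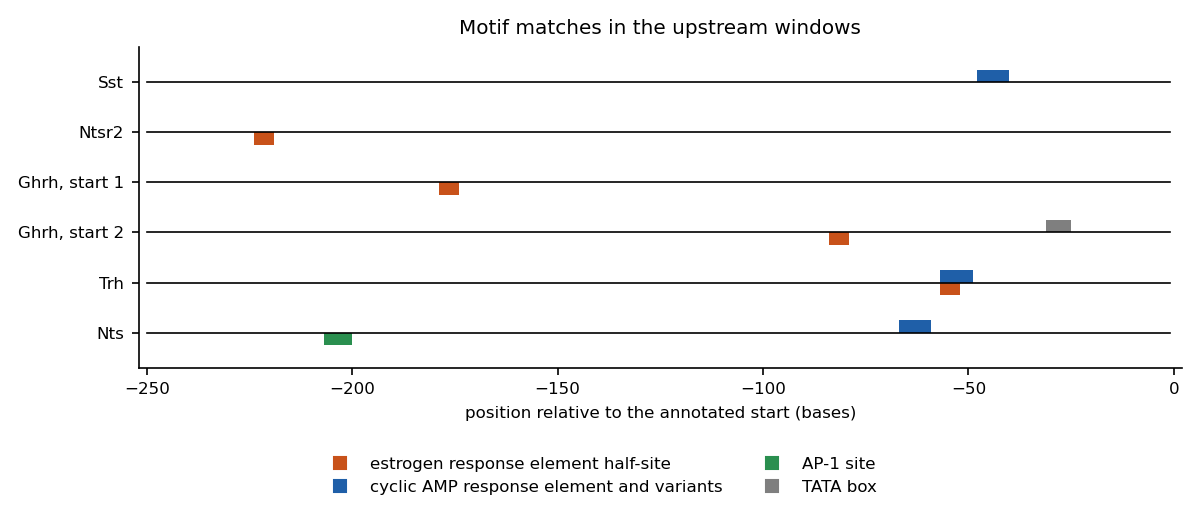
Positions of motif matches in the 250 bases upstream of 6 annotated starts, with distance from the start in bases on the horizontal axis and 1 line per window. Coloured boxes are matches on either strand: Nts, Sst and Trh hold a cyclic AMP response element variant within 67 bases of the start, and the half-site boxes lie at 224 to 53 bases before the start in Ghrh, Trh and Ntsr2.

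The levels of the 7 transcripts covered a wide range. Sst was the highest, at a mean of 1073 FPKM over the 18 libraries, which placed it 16th of the 14774 tested genes and made it 77.3% of the summed level of the 7. Ntsr2 followed at 138 FPKM and Ghrh at 121 FPKM. Trh averaged 32.9 FPKM, Gnrh1 11.9 FPKM and Nts 10.9 FPKM. Crh averaged 0.296 FPKM. The implied number of fragments behind a value ran from 4877 to 8986 for Sst, but only from 86.0 to 361 for Nts and from 24.0 to 120 for Gnrh1. The share of the variance of log2(FPKM + 1) that lay between the 6 groups was 80.6% for Nts, 66.0% for Sst, 57.6% for Ghrh, 51.2% for Trh, 36.1% for Ntsr2 and 13.1% for Gnrh1. With 6 groups of 3 libraries, part of the variance lies between groups even when no group differs. The share over all genes was not computed, and these shares include the third ERKO E2 library.

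**Figure D2:**
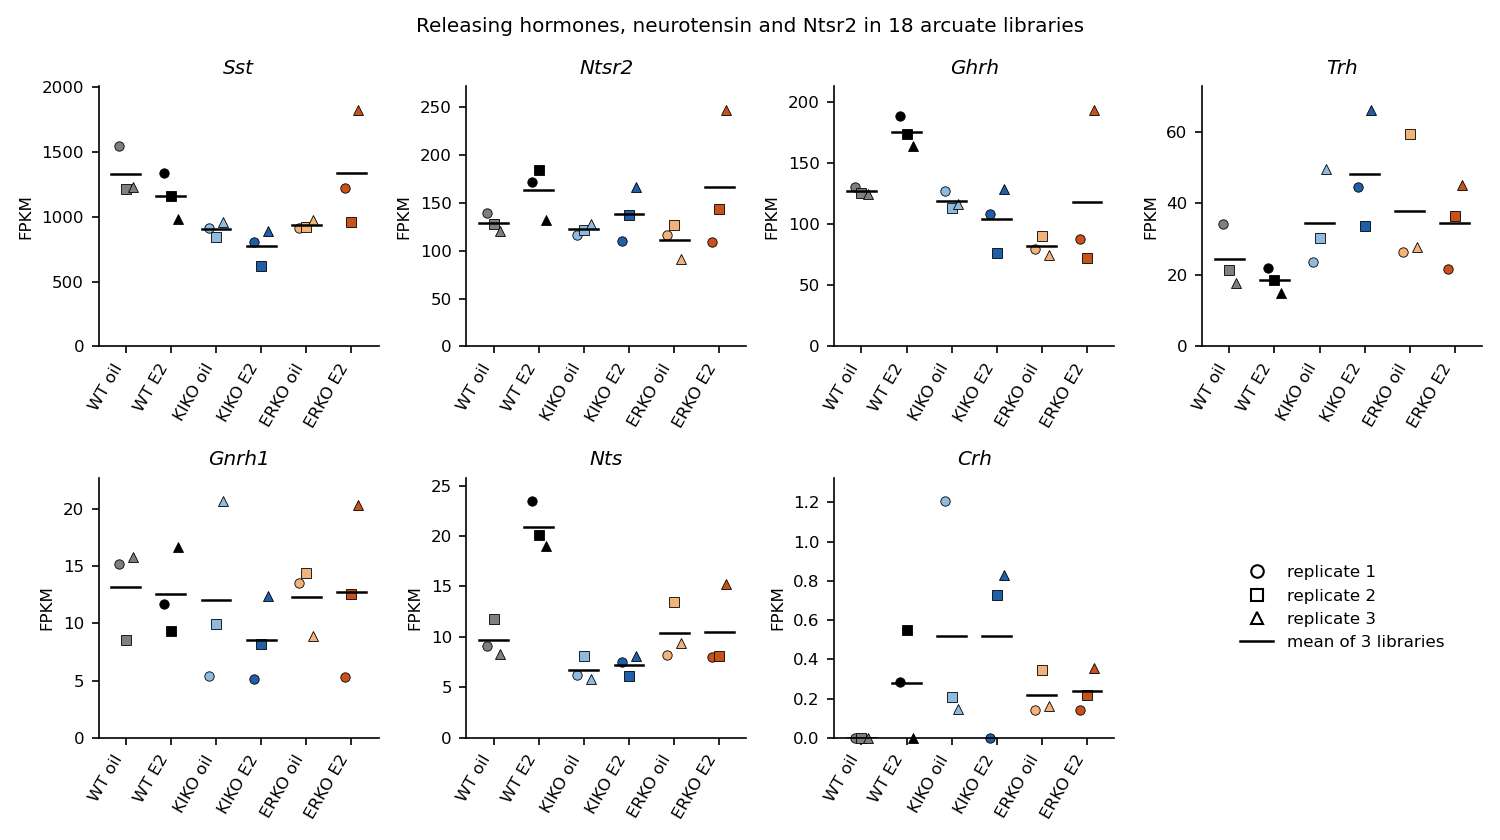
FPKM of each gene (vertical axes, linear from 0) in the 6 groups, with 1 point per library and a bar at the mean of 3 libraries. The 3 WT E2 libraries lie above all others for Nts, from 19.0 to 23.5 FPKM, and the third ERKO E2 library is the highest of all for Sst, Ntsr2 and Ghrh.

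Nts, the neurotensin precursor, was the 1 gene of the 7 that passed the test in any comparison. In WT animals it was higher after E2, and under E2 it was lower in both mutants than in WT. The WT oil libraries measured 9.07, 11.8 and 8.34 FPKM and the WT E2 libraries 23.5, 20.1 and 19.0 FPKM, so the groups did not overlap. The means were 9.74 ± 1.83 and 20.9 ± 2.31 FPKM (SD, n = 3), a ratio of 2.14. On the log2(FPKM + 1) scale Nts rose by 1.03 ± 0.22 (SE; limma, adjusted p = 0.0379, adjusted over all 14774 genes). It was the 1 gene of the 6 that rose here, as did 0.602% of all tested genes. In bulk tissue, more cells of a type and more RNA per cell cannot be told apart.

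In KIKO animals Nts measured 6.25, 8.13 and 5.86 FPKM under oil and 7.52, 6.10 and 8.12 FPKM under E2. The ranges overlapped almost wholly, and the difference was 0.09 ± 0.22 (adjusted p = 1; 95% interval −0.38 to 0.56). In ERKO animals it measured 8.17, 13.5 and 9.36 FPKM under oil and 8.04, 8.13 and 15.2 FPKM under E2. The difference was −0.01 ± 0.22 (adjusted p = 0.978; 95% interval −0.48 to 0.46), and −0.29 without the third ERKO E2 library, when all remaining E2 values were below the oil values. Neither interval reached the WT estimate of 1.03, which has its own SE of 0.22. Setting them side by side does not test whether the responses differ. In the direct test given below, neither difference from the WT response passed with all 18 libraries.

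Under E2, Nts in KIKO was 0.347 times its WT level and the groups did not overlap. The difference was −1.41 ± 0.22 (limma, adjusted p = 0.00425), and Nts was the 1 gene of 6 called lower here, against 0.745% of all tested genes. ERKO E2 stood at 0.502 times WT E2, again without overlap, with a difference of −0.98 ± 0.22 (adjusted p = 0.0407). Without the third ERKO E2 library this became −1.26 (adjusted p = 0.000940). Among all tested genes 1.03% were called lower in this comparison. These 2 comparisons and the WT response share the 3 WT E2 libraries and are not independent of each other.

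The difference between responses was tested directly. The E2 response of Nts in KIKO minus that in WT was −0.94 ± 0.31 (limma, adjusted p = 0.661). For ERKO minus WT it was −1.05 ± 0.31 (adjusted p = 0.213), so neither passed. Without the third ERKO E2 library the ERKO difference was −1.33 and passed (adjusted p = 0.0209), while KIKO did not in the same fit (adjusted p = 0.119). None of the 6 tested genes passed in either response comparison, where 0.135% of all genes were called for KIKO and 0.278% for ERKO. At an unadjusted p under 0.05, Nts stood alone for KIKO in limma, and Nts and Sst did so for ERKO, where 4.91% and 12.7% of all genes passed that level. Without the third ERKO E2 library Sst no longer did so, its ERKO minus WT difference going from 0.67 to 0.42, and Nts and Ghrh did.

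The KIKO difference under E2 passed in every alternative run, with adjusted p from 0.000110 to 0.0327. The other Nts calls were less firm. The WT response lost its call with no filter on low values (adjusted p = 0.0506), quantile normalization (0.0569), library weights (0.0527) and a length and GC correction (0.0731). It was also lost without WT oil 1, WT oil 3 or any WT E2 library, at adjusted p from 0.0873 to 0.163, and held without WT oil 2 (0.0457) or without the third ERKO E2 library (0.00207). Nts transcripts are low in GC, at a median of 39.4%, with only 2.08% of genes lower. Library deviations from the gene means were compared with GC content across genes. Spearman's rho was 0.0829 to 0.502 in WT oil and −0.231 to 0.183 in WT E2. The WT rise of Nts was 0.89 with the length and GC correction, against 1.03 without it. The part of GC content alone in this rise was not tested. The ERKO difference under E2 was lost with no filter (0.0534), with only those groups in the fit (0.621), and without any 1 WT E2 library or ERKO E2 1 or 2 (0.0889 to 0.159).

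Under oil, Nts was lower in each KIKO library than in any WT library, but the difference of −0.47 ± 0.22 did not pass (adjusted p = 0.497). ERKO oil and WT oil overlapped, at 0.06 ± 0.22 (adjusted p = 0.883), a value that turned to −0.17 with the length and GC correction. In order of mean level, WT E2 stood first without overlap with ERKO E2. ERKO E2, ERKO oil and WT oil overlapped, at 10.5, 10.3 and 9.74 FPKM, and ERKO E2 stood at 8.09 FPKM without ERKO E2 3. WT oil did not overlap with KIKO E2 (7.25 FPKM), which overlapped with KIKO oil (6.75 FPKM). Neurotensin cells are also known in the lateral hypothalamus and the preoptic area next to the dissected tissue. The 4 lateral hypothalamic markers summed to 9.45 to 31.4 FPKM in WT oil and 12.5 to 24.6 FPKM in WT E2, and the 4 preoptic and anterior markers to 8.70 to 15.9 and 10.9 to 16.7 FPKM. Both lists overlapped between the WT groups, and Npvf and Lhx6 among them were each at 0 in 1 library. Of 15 marker lists 2 did not overlap between the WT groups, both lower after E2. The 12 arcuate neuron markers summed to 4519 to 5326 FPKM in WT oil and 2961 to 3492 FPKM in WT E2, and the 7 astrocyte markers to 829 to 1018 and 760 to 826 FPKM. Gene by gene, 3 of the 12 arcuate markers were called lower and 1 higher, against 0.183% and 0.602% of all genes. Their changes ran from −3.58 to 1.53 with a median of −0.15, so this sum follows its most abundant genes and not all 12 alike. Between KIKO E2 and WT E2 the 1 list without overlap was endothelium, at 81.0 to 87.2 against 105 to 112 FPKM, and between ERKO E2 and WT E2 all 15 lists overlapped. The part of these levels in the Nts values was not tested.

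**Figure D3:**
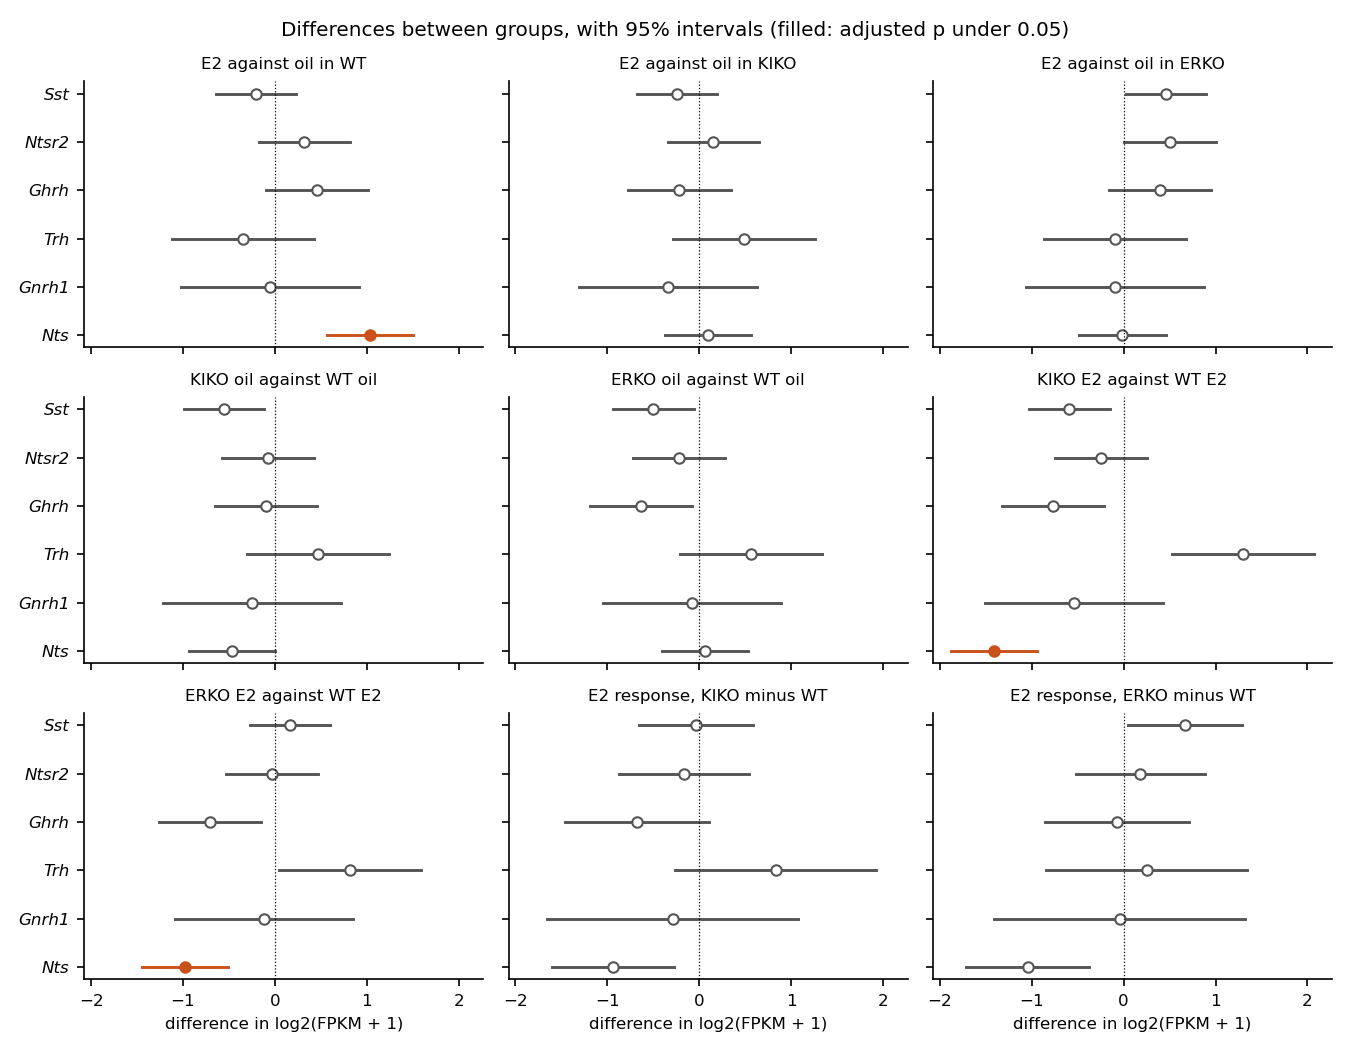
Differences in log2(FPKM + 1) on the horizontal axis for 6 genes in 9 comparisons, with 95% intervals from limma as lines. Filled points have an adjusted p under 0.05: Nts in WT (1.03), in KIKO against WT under E2 (−1.41) and in ERKO against WT under E2 (−0.98).

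Ntsr2, the neurotensin receptor found mainly on astrocytes, did not pass in any comparison. It measured 139, 128 and 120 FPKM in WT oil and 172, 185 and 132 FPKM in WT E2. These groups overlapped, and the difference was 0.32 ± 0.23 (limma, adjusted p = 0.731; 95% interval −0.18 to 0.82). KIKO oil libraries held 117, 121 and 128 FPKM, and KIKO E2 libraries 110, 138 and 166 FPKM. ERKO oil libraries held 117, 127 and 91.4 FPKM, and ERKO E2 libraries 109, 144 and 247 FPKM, the last being the library that stood apart. The ERKO response of 0.50 ± 0.23 had an unadjusted p of 0.0480 and an adjusted p of 0.473. Without the library that stood apart it was 0.18 (adjusted p = 1). All neighbouring groups in the order of Ntsr2 levels overlapped, from ERKO E2 at 167 FPKM (127 FPKM without ERKO E2 3) down to ERKO oil at 112 FPKM. The receptor therefore showed no called change where its ligand did, and the intervals left room for differences of up to 0.82 in WT.

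Ghrh, the releasing hormone for growth hormone, was highest in WT E2 and lowest in ERKO oil. WT oil libraries measured 131, 126 and 124 FPKM and WT E2 libraries 188, 174 and 164 FPKM. The groups did not overlap. The difference of 0.46 ± 0.26 did not pass (limma, adjusted p = 0.602), and 9.37% of all tested genes were higher without overlap in this comparison, Ghrh and Nts being the 2 of 6 here. KIKO oil libraries measured 127, 113 and 117 FPKM, within reach of WT oil (−0.09 ± 0.26, adjusted p = 0.932). KIKO E2 libraries measured 108, 76.5 and 129 FPKM and lay wholly below WT E2. ERKO oil libraries measured 80.0, 90.1 and 75.1 FPKM and lay wholly below WT oil. ERKO E2 libraries measured 88.1, 72.3 and 193 FPKM, and the last was the highest Ghrh value of the series.

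None of these Ghrh differences passed in the main fit, which held all 18 libraries without weights or further normalization. KIKO E2 against WT E2 stood at −0.77 ± 0.26 (limma, adjusted p = 0.282), ERKO oil against WT oil at −0.63 ± 0.26 (adjusted p = 0.180) and ERKO E2 against WT E2 at −0.70 ± 0.26 (adjusted p = 0.288). Each passed once the third ERKO E2 library was left out of the fit. The adjusted p was then 0.00495 for KIKO E2, 0.00677 for ERKO oil and 0.000606 for ERKO E2, with the last difference at −1.12. Without that library the mean of ERKO E2 was 80.2 FPKM, and ERKO E2 no longer overlapped with WT E2. Library weights, which gave that library a weight of 0.0511, also called all 3. With only the groups compared in the fit ERKO oil passed (adjusted p = 0.0165), and with quantile normalization ERKO E2 passed (0.0390). The E2 response of Ghrh in KIKO (−0.22 ± 0.26) and ERKO (0.39 ± 0.26) did not pass, nor did the differences from the WT response (−0.68 ± 0.37 and −0.07 ± 0.37, adjusted p = 0.999 and 0.932). Without the third ERKO E2 library the ERKO response turned to −0.03 (adjusted p = 1) and its difference from WT became −0.49 (adjusted p = 0.318).

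Sst, the somatostatin gene, was highest in WT oil among the groups without the outlying library. WT oil libraries measured 1549, 1217 and 1229 FPKM and WT E2 libraries 1336, 1158 and 981 FPKM. KIKO libraries were lower, at 912, 840 and 956 FPKM under oil and 803, 623 and 890 FPKM under E2, and neither set overlapped with WT under the same treatment. ERKO oil libraries measured 917, 918 and 974 FPKM, below all of WT oil. ERKO E2 libraries measured 1223, 961 and 1826 FPKM and overlapped with WT E2.

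The Sst differences did not pass in the main fit of all 18 libraries. KIKO against WT was −0.55 ± 0.21 under oil (limma, adjusted p = 0.357) and −0.59 ± 0.21 under E2 (adjusted p = 0.300). ERKO against WT was −0.50 ± 0.21 under oil (adjusted p = 0.179) and 0.17 ± 0.21 under E2 (adjusted p = 0.866), and the last turned to −0.08 without the third ERKO E2 library. In fits without that library KIKO E2 (adjusted p = 0.0260) and ERKO oil (0.0198) passed, while KIKO oil did not (0.0539). KIKO E2 also passed with quantile normalization (0.0250) and library weights (0.00549), and ERKO oil with weights (0.0248) and with only the groups compared in the fit (0.0284). Quantile normalization brought ERKO oil to −0.13 (adjusted p = 0.358) and KIKO oil to −0.31 (adjusted p = 0.213). E2 against oil gave −0.20 ± 0.21 for WT (adjusted p = 0.845), −0.24 ± 0.21 for KIKO (adjusted p = 1) and 0.46 ± 0.21 for ERKO (adjusted p = 0.473). The ERKO value was 0.21 without the third ERKO E2 library and 0.050 with quantile normalization.

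Counted by overlap, 2 of the 6 tested genes, Sst and Nts, lay wholly below WT oil in KIKO oil, where 9.35% of all genes did. In ERKO oil the 2 were Ghrh and Sst, where 18.4% of all genes lay wholly below WT oil. In KIKO E2 the 3 were Ghrh, Sst and Nts, where 10.5% of all genes lay wholly below WT E2, and Trh alone lay wholly above, as did 11.4%. In ERKO E2 only Nts of the 6 lay wholly below WT E2, as did 6.29% of all genes. No gene of the 6 separated between E2 and oil in KIKO or ERKO, where 7.41% and 12.3% of all genes did. None of the 6 was called at an adjusted p under 0.05 in KIKO oil (0.0135% of all genes), ERKO oil (1.43%), KIKO E2 against oil (0.00677%) or ERKO E2 against oil (0%). At an unadjusted p under 0.05 these held Sst in KIKO oil, Ghrh and Sst in ERKO oil, none in KIKO E2 against oil, and Ntsr2 and Sst in ERKO E2 against oil (neither without the third ERKO E2 library), and the shares of all genes were 10.1%, 21.7%, 0.948% and 7.23%.

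Measures of the tissue and of the libraries moved with some of these Ghrh and Sst values. The summed level of the 6 paraventricular and magnocellular markers was 4502 to 7323 FPKM in WT oil, 2674 to 4395 FPKM in KIKO oil and 1779 to 4339 FPKM in ERKO oil, without overlap between WT and either mutant. It was 1 of 4 lists, of 15, whose sums were lower in both mutants under oil. Avp and Oxt made up most of this sum. Gene by gene, differences of the 6 from WT oil ran from −1.04 to 0.10 in KIKO oil and from −1.07 to 0.21 in ERKO oil. Those of the 12 arcuate neuron markers ran from −0.85 to 0.21 and from −1.14 to 0.47. The arcuate neuron markers summed to 4519 to 5326 FPKM in WT oil, 3264 to 4169 FPKM in KIKO oil and 2876 to 2974 FPKM in ERKO oil. The 8 oligodendrocyte markers summed to 1462 to 1953, 1301 to 1406 and 1207 to 1391 FPKM, and the 7 astrocyte markers to 829 to 1018, 767 to 801 and 729 to 801 FPKM in the same order. The other 2 lists that separated were higher in both mutants, the 12 general neuron markers at 1110 to 1179, 1197 to 1269 and 1204 to 1280 FPKM and the 4 preoptic and anterior markers at 8.70 to 15.9, 17.2 to 21.4 and 18.5 to 24.9 FPKM. Under E2 the paraventricular and magnocellular markers summed to 4011 to 5569 FPKM in WT and 3007 to 5153 FPKM in KIKO, which overlapped. Somatostatin neurons that project to the pituitary are known from the nearby periventricular zone. The deviations of libraries from the gene means also followed GC content across genes. In the ERKO oil libraries Spearman's rho with GC content was −0.489, −0.340 and −0.473, and in the WT oil libraries it was 0.502, 0.231 and 0.0829. Ghrh transcripts are short, at a median of 512 bases, with only 2.95% of genes shorter, and 55.7% GC. With the length and GC correction ERKO oil against WT oil was −0.38 for Ghrh (adjusted p = 0.300) and −0.32 for Sst (adjusted p = 0.322), and ERKO E2 against WT E2 was −0.72 for Ghrh (adjusted p = 0.0338). Total FPKM also differed between groups, at 492135, 468499 and 454708 in WT oil and 431634, 426555 and 418191 in ERKO oil. It was 483470, 474301 and 457286 in WT E2 and 445901, 421849 and 462605 in KIKO E2. ERKO E2 1 and 2 held 431461 and 426116. In WT oil and in each E2 group the order of Ghrh followed that of the totals, but not in KIKO oil or ERKO oil. The part of the marker levels and of the totals in the Ghrh and Sst values was not tested.

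Trh, the releasing hormone for thyrotropin, went the other way from Nts, Ghrh and Sst in KIKO under E2, without passing the test. WT oil libraries measured 34.2, 21.4 and 17.7 FPKM and WT E2 libraries 21.8, 18.5 and 15.0 FPKM. KIKO oil libraries measured 23.5, 30.2 and 49.5 FPKM and KIKO E2 libraries 44.6, 33.5 and 66.2 FPKM, all 3 of the latter above WT E2. ERKO oil libraries measured 26.5, 59.4 and 27.8 FPKM and ERKO E2 libraries 21.6, 36.4 and 45.2 FPKM. KIKO E2 was 2.61 times WT E2 by its means, a difference of 1.30 ± 0.36 (limma, adjusted p = 0.152; 95% interval 0.52 to 2.07). The adjusted p stayed above the threshold in every alternative run, from 0.0593 to 0.460. ERKO E2 against WT E2 was 0.82 ± 0.36 (adjusted p = 0.407), and 0.59 without the third ERKO E2 library. The libraries of 1 group differed by up to 2.24-fold, as in ERKO oil, and all neighbours in the order of group means overlapped. Under E2 the summed paraventricular and magnocellular markers, given above, overlapped between KIKO and WT, but Avp and Oxt made up most of that sum. The part of the tissue taken in the Trh values was not tested.

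Gnrh1, the gene for gonadotropin-releasing hormone, varied more between libraries of 1 group than between groups. WT oil libraries measured 15.2, 8.51 and 15.8 FPKM and WT E2 libraries 11.7, 9.37 and 16.7 FPKM. KIKO oil libraries ran from 5.42 to 20.7 FPKM and KIKO E2 libraries from 5.13 to 12.4 FPKM. ERKO oil libraries ran from 8.92 to 14.4 FPKM and ERKO E2 libraries from 5.31 to 20.3 FPKM. Every pair of groups overlapped, and adjusted p ran from 0.786 to 1 over the 9 comparisons. The WT response was −0.05 ± 0.46 with a 95% interval of −1.02 to 0.92, so changes of up to about that size were not detectable.

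Crh, the releasing hormone for corticotropin, was listed at 0 in 5 libraries. These were all 3 WT oil libraries, WT E2 3 and KIKO E2 1. Its highest values were 1.21 FPKM in KIKO oil 1, 0.829 FPKM in KIKO E2 3 and 0.729 FPKM in KIKO E2 2, and the other 10 libraries held 0.144 to 0.551 FPKM. Where it was above 0 the values rested on 3.00 to 19.0 implied fragments, too few for a comparison of groups. Tested without the filter on low values, Crh did not pass in any comparison, with adjusted p from 0.507 to 1.

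The receptors of these peptides were measured in the same tissue. Of 14 receptor genes on the list, 11 were high enough to test, and none passed in any of the 9 comparisons. Between 0% and 1.43% of all tested genes were called in these comparisons. The sorting receptor Sort1, sortilin, had the highest mean at 23.6 FPKM, and the other neurotensin receptors were Sorl1 at 11.3 FPKM and Ntsr1 at 3.71 FPKM. All were well below Ntsr2. Somatostatin receptors ran from Sstr1 at 15.3 FPKM and Sstr2 at 9.38 FPKM to Sstr5, Sstr3 and Sstr4 at 2.72, 2.47 and 2.04 FPKM. The CRH receptors Crhr1 and Crhr2 averaged 5.76 and 3.25 FPKM, well above their ligand Crh in this tissue, and the TRH receptor Trhr averaged 2.69 FPKM. Ghrhr, Gnrhr and Trhr2, at 0.0347, 0.0512 and 0.142 FPKM, were below the filter.

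Sstr2, an inhibitory somatostatin receptor, came nearest to the threshold. WT oil libraries measured 6.54, 6.93 and 10.9 FPKM and WT E2 libraries 12.7, 19.9 and 13.6 FPKM, without overlap. Of all tested genes, 9.37% were higher without overlap in this comparison. KIKO E2 libraries held 7.74, 8.72 and 11.2 FPKM and ERKO E2 libraries 8.08, 8.96 and 7.20 FPKM. The WT response was 0.85 ± 0.20 (limma, adjusted p = 0.0675), and ERKO E2 against WT E2 was −0.83 ± 0.20 (adjusted p = 0.0569). Both passed without the third ERKO E2 library (adjusted p = 0.0250 and 0.0393), and the WT response also without WT oil 3 (0.0173). The differences of the KIKO and ERKO responses from WT did not pass (adjusted p = 0.963 and 0.292).

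**Figure D4:**
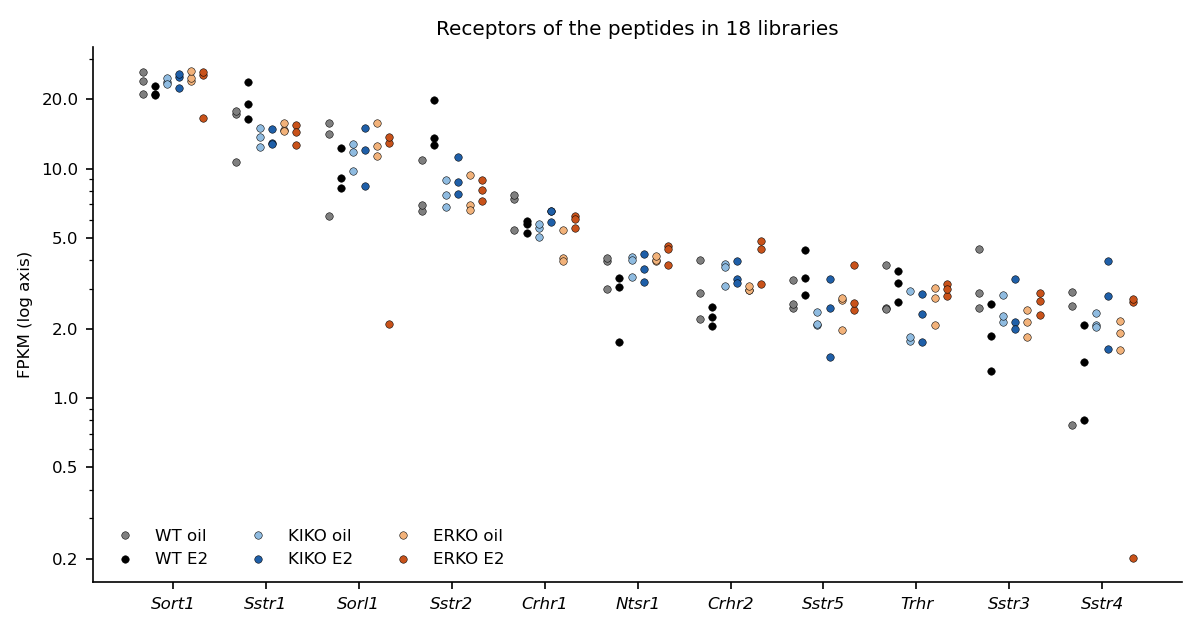
FPKM on a log axis of the 11 tested receptor genes, ordered by their mean, with 1 point per library coloured by group. The 3 WT E2 libraries are the highest for Sstr2, from 12.7 to 19.9 FPKM.

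Over the wider list of 54 genes for receptors, related ligands, peptide-degrading enzymes, prohormone processing and transcription factors, 45 were tested. In WT, 1 of these fell after E2 and none rose, with a median change of −0.06 against 0.01 over all genes, and 0.183% of all genes fell. The 1 was Pcsk1, which encodes the prohormone convertase PC1/3 that cleaves many neuropeptide precursors. Its WT oil libraries measured 32.1, 43.7 and 59.3 FPKM and its WT E2 libraries 17.1, 18.9 and 26.6 FPKM, a difference of −1.06 ± 0.23 (limma, adjusted p = 0.0377). The groups did not overlap, and 6.45% of all tested genes were lower without overlap here. The call was lost without WT oil 2 or 3 or WT E2 1 or 2, at adjusted p from 0.110 to 0.176. It was lost with no filter (0.0507), quantile normalization (0.0519) and when the fit held WT libraries alone (0.144). In KIKO the difference was −0.65 ± 0.23 (adjusted p = 1) and in ERKO −0.25 ± 0.23 (adjusted p = 0.561), the latter −0.07 without the third ERKO E2 library. KIKO oil libraries measured 37.7, 42.8 and 46.7 FPKM and KIKO E2 libraries 29.6, 29.4 and 21.6 FPKM. These groups did not overlap either, and 2.86% of all genes were lower without overlap there. The difference of the ERKO response from WT was 0.81 and did not pass (limma, adjusted p = 0.329), nor did that of KIKO. No gene of the 45 passed in any of the other 8 comparisons, where 0% to 1.43% of all genes were called. Ucn, a CRH family ligand, was listed at 0 in all 18 libraries, and the CRH binding protein gene Crhbp averaged 1.18 FPKM. Gsx1, a transcription factor of developing GHRH neurons, averaged 5.47 FPKM and did not pass.

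The genes whose order over the 18 libraries was most like each transcript were found by Spearman's rho among all tested genes. These libraries share groups, depth and base composition, so the values are a description. Ghrh was closest to Etfb (rho = 0.977), a mitochondrial electron carrier subunit, Raly (0.975), an RNA-binding protein, and Nme1 (0.973), a nucleoside diphosphate kinase. The values for Ghrh were 0.973, 0.971 and 0.968 without the third ERKO E2 library. Sst was closest to Krt1 (0.843), Osgep (0.833) and Oxt (0.804), the oxytocin gene of magnocellular neurons. Trh was closest to Nxph4 (0.897), Aard (0.837) and Darc (0.829). Nts was closest to Slc16a1 (0.792), a monocarboxylate transporter, Cckar (0.787), a cholecystokinin receptor, and Prdx4 (0.787). Without the third ERKO E2 library Cckar reached 0.819, while Slc16a1 and Prdx4 fell to places 11 and 12. Gnrh1 was closest to Vps53 (0.787), Zc3h15 (0.783) and Sap30bp (0.773), and Ntsr2 to Kctd17 (0.897), Ypel3 (0.897) and Cmas (0.874).

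Among the 7 transcripts themselves, Nts was most like Sst (rho = 0.643), at place 148 among all genes for Nts. Ghrh and Ntsr2 stood at 0.614, Ghrh and Nts at 0.517, and Nts and its receptor gene Ntsr2 at 0.414. Trh ran against Sst (−0.366) and Nts (−0.373), and these were −0.537 and −0.463 without the third ERKO E2 library. Nts alone put WT E2 above all other libraries, and Cckar, picked by its likeness to Nts over these same libraries, did so too. The share of all genes with this order was not computed. Cckar measured 8.71, 9.24 and 8.81 FPKM in WT E2 and between 2.36 and 5.19 FPKM in the other 15 libraries.

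**Figure D5:**
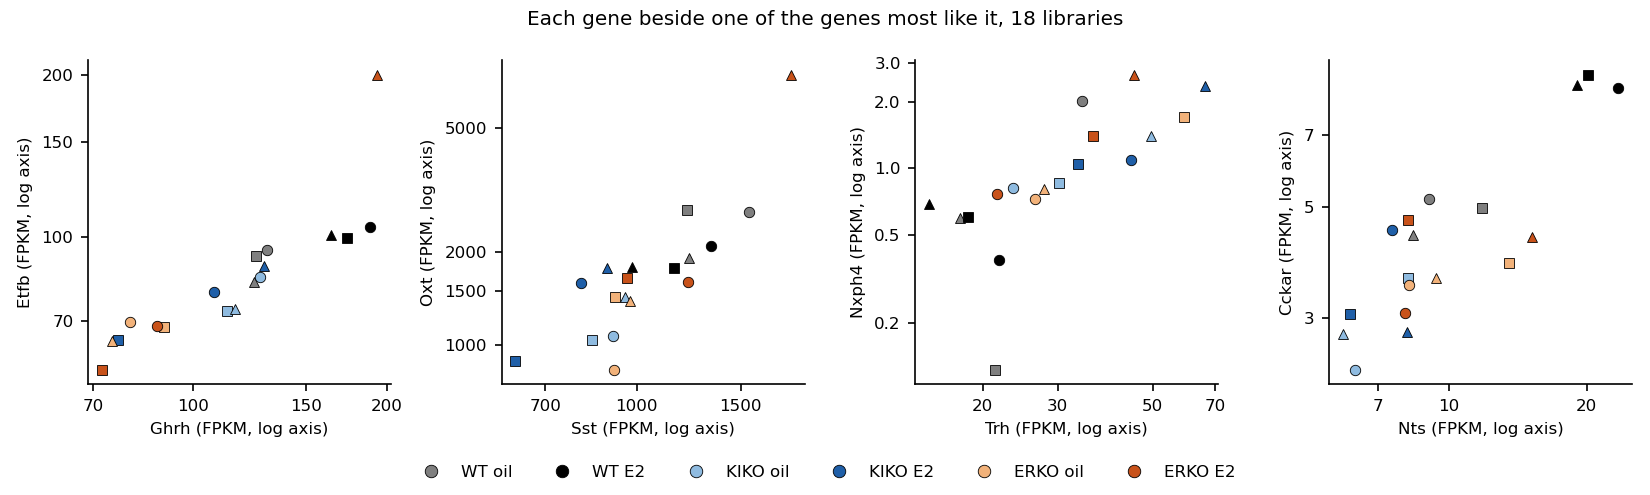
FPKM of Ghrh, Sst, Trh and Nts (horizontal, log axes) against Etfb, Oxt, Nxph4 and Cckar (vertical, log axes), with 1 point per library, coloured by group and shaped by replicate number. The third ERKO E2 library is highest for Etfb (200 FPKM) and Oxt (7392 FPKM), and the 3 WT E2 libraries stand apart in the panel of Nts and Cckar. The genes on the vertical axes were picked by their likeness over these same libraries.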

How the data were processed

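RNA from 18 microdissected arcuate samples was sequenced by the submitters. Per the submitters' processing notes, TopHat2 2.0, Cuffdiff and the build mm10 were named, and the deposited tables hold FPKM with lower and upper bounds per gene. Which entries of those notes made which step is not given in the sources used here. Deposited gene starts did not lie on GRCm38 (4.748% within 1000 bases of RefSeq), so no deposited coordinates are printed.

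Entries that shared a symbol were summed, and genes for small RNAs (microRNA, snoRNA, snRNA) were left out. The deposited FPKM values were tested as log2(FPKM + 1) with limma 3.58.1 (trend and robust options, R 4.3.3) in 1 fit of 6 group means with 12 residual degrees of freedom. P-values are two-sided and Benjamini-Hochberg adjusted over 14774 genes, with a threshold of 0.05. Fold differences on this scale understate changes of low genes. The script was tested on simulated data. Fragments behind a value were read from the deposited bounds, and 90.2% of 82 values under 1000 fragments were whole within 0.05.

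The 7 genes, the lists and the tests were chosen with earlier results of these data known. Genes named are the 7, listed receptors by level, listed genes past the threshold, Esr1 and the 3 named genes with the highest rho to each. Sstr2, Crhbp, Ucn and Gsx1 values were picked out after they were seen. The length and GC correction was added after seeing the data and covered 98.8% of tested genes.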

Additional observations from a re-analysis of the deposited data

How the results depend on the processing

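Of 54 comparisons of a single gene, run under 1026 alternatives in all, 933 kept their direction and side of the threshold, 59 reversed, 18 lost a call and 16 gained one. Group means under median-ratio scaling moved by less than 1 SD for all 42 levels. The cause of the changes below was not tested, and fits without 1 library hold fewer samples. Depth limits Crh and Gnrh1 most, which had the fewest fragments. The length and GC correction was chosen after seeing the data.

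Counts of called genes over all 14774 in WT after E2 were 116, 71 with only the groups compared, 209 with library weights, 397 without ERKO E2 3 and 71 to 152 without 1 library. In KIKO after E2 the count of 1 became 0 with pseudocounts of 0.1 or 0.5, only the groups compared or the length and GC correction, 3 with no filter, 4 with weights and 0 to 1 without 1 library. In ERKO after E2 0 became 1 with weights or the correction, and 0 to 1 without 1 library. For KIKO oil against WT oil 2 became 0 with either pseudocount or a mean of at least 1 FPKM, 7 with no filter or quantile normalization, 10 with only those groups, 351 with weights, 6 with the correction, 268 without ERKO E2 3 and 0 to 8 without 1 library. For ERKO oil 212 became 430 with quantile normalization, 1661 with only those groups, 2932 with weights, 37 with the correction, 3319 without ERKO E2 3 and 1 to 287 without 1 library. For KIKO E2 140 became 1030 with weights, 596 without ERKO E2 3 and 55 to 86 without 1 library. For ERKO E2 192 became 13 with only those groups, 1302 with weights and 95 to 1286 without 1 library. The KIKO response difference, 20, became 9 with a pseudocount of 0.1, 31 with no filter or the correction, 59 with weights, 42 without ERKO E2 3 and 7 to 25 without 1 library. The ERKO response difference, 41, became 26 with quantile normalization, 18 with only those groups, 73 with weights and 25 to 104 without 1 library.

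Among the 6 genes, the count in WT after E2 went from 1 to 0 with no filter, quantile normalization, weights and the correction, and was 0 to 1 without 1 library. For ERKO oil it went from 0 to 2 with only those groups, weights or without ERKO E2 3. For KIKO E2 it went from 1 to 2 with quantile normalization and 3 with weights or without ERKO E2 3. For ERKO E2 it went from 1 to 0 with no filter or only those groups, to 2 with quantile normalization, weights or the correction, and was 0 to 2 without 1 library. The ERKO response difference gave 0 to 1 without 1 library.

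A replicate block could be fitted, but the numbers did not pair the libraries throughout. No comparison had all 3 same-number correlations above 0.1, and in none did every library correlate best with its own number. For E2 against oil, numbers 1 and 3 did so in WT (r = 0.290 and 0.383) and numbers 2 and 3 in KIKO (0.313 and 0.172). Number 2 in WT (−0.181), number 1 in KIKO (−0.0753) and all numbers in ERKO did not, so pairing is not settled. With the block the KIKO count after E2 was 0, KIKO oil 1 and ERKO oil 64, and the count among the 6 genes was 0 in WT after E2 and for ERKO E2. The Nts adjusted p was then 0.0632 and 0.0688, in these comparisons, against 0.0109 for KIKO E2. That of Pcsk1 in WT was 0.0501, that of Ghsr in WT 0.0590 and that of Esr1 for ERKO oil 0.0544.

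Reversals were all of values that were not called, between −0.34 and 0.39 in log2(FPKM + 1), and no reversed value passed. In WT after E2 Gnrh1 was 0.015 with weights and −0.31 to 0.13 without 1 library, and in KIKO −0.76 to 0.12. In ERKO after E2 Ghrh was −0.037 with weights and −0.030 to 0.67 without 1 library, Trh −0.32 to 0.27, Gnrh1 −0.49 to 0.38, and Nts 0.019 with quantile normalization, 0.058 with the correction and −0.29 to 0.18. For KIKO oil Ghrh was 0.021 with the correction, Ntsr2 0.016 with quantile normalization and 0.049 with the correction, and Gnrh1 −0.71 to 0.17. For ERKO oil Gnrh1 was 0.14 with weights, 0.063 with the correction and −0.34 to 0.12, Nts −0.0010 with quantile normalization, −0.17 with the correction and −0.13 to 0.20, and Ntsr2 0.050 with the correction. For ERKO E2 Sst was −0.035 with quantile normalization, −0.15 with weights and −0.084 to 0.38, Gnrh1 −0.52 to 0.36 and Ntsr2 −0.36 to 0.22. In the KIKO response difference Sst was −0.15 to 0.11 and Gnrh1 −0.71 to 0.17. In that of ERKO Ghrh was −0.49 to 0.21, Trh −0.34 with weights and −0.012 to 0.62, Gnrh1 −0.44 to 0.43, and Ntsr2 −0.023, −0.27 and −0.13 with quantile normalization, weights and the correction, and −0.14 to 0.44 without 1 library.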

Other observations

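Ghsr, the ghrelin receptor gene, which is known on GHRH neurons, was picked out after its values were seen. It measured 2.10, 3.58 and 6.18 FPKM in WT oil and 10.1, 13.6 and 14.3 FPKM in WT E2, a rise of 1.53 ± 0.33 in log2(FPKM + 1) (limma, adjusted p = 0.0409). The call was lost with pseudocounts of 0.1 (0.0778) or 0.5 (0.0585), no filter (0.0550), only the WT groups (0.0695) or a replicate block (0.0590), and without any 1 WT library (adjusted p = 0.0758 to 0.184) except WT oil 3 (0.0173). The difference was 0.07 ± 0.33 in KIKO (adjusted p = 1) and −0.54 ± 0.33 in ERKO (adjusted p = 0.473). The ERKO E2 libraries measured 4.58, 5.76 and 1.33 FPKM, and without the third, which stands apart from all others, the ERKO difference was −0.08. The difference of the ERKO response from WT was −2.08 ± 0.47 and did not pass (adjusted p = 0.105; −1.61 and 0.0525 without that library), nor did that of KIKO at −1.47 ± 0.47 (adjusted p = 0.609).

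Mme, which encodes neprilysin, a protease that degrades neurotensin and somatostatin, was also picked out after its values were seen. Its mean of 0.353 FPKM was below the filter, so it was not tested. The WT oil libraries measured 0.257, 0.374 and 0.293 FPKM and the WT E2 libraries 0.641, 1.21 and 1.07 FPKM, and the other 12 libraries lay between 0.0699 and 0.317 FPKM.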
